A study of Homo sapiens with 4 samples.

Results

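The regions described here are MTA1 peaks at the ends of long non-coding RNA (lncRNA) genes, apart from the ends of protein-coding and miRNA genes, in the human colon cancer line HCT116. A peak was taken when its midpoint lay within 1000 bp of either end of a RefSeq lncRNA gene of GRCh38, on chromosomes 1 to 22. The midpoint also had to lie more than 1000 bp from every end of a protein-coding gene and of a miRNA gene. Of 62558 peaks on these chromosomes in both deposited lists, 1796 met the rule, with 1230 of 31826 in the list of replicate 1 (list 1) and 566 of 30732 in the list of replicate 2 (list 2). The rule used positions alone and no peak score.

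The study sequenced chromatin from HCT116, an epithelial line from a colorectal carcinoma. Cells were fixed with formaldehyde, and DNA from an immunoprecipitate with an MTA1 antibody (2 libraries) or from input chromatin without antibody (2 libraries) was sequenced as paired ends. No other treatment or genotype is given, and the labels do not say whether the 2 libraries of a kind came from separate cultures. Each list holds the peaks of 1 MTA1 library against the input of the same number, with a position and a score for each peak, so no value per library, no depth and no spread between libraries could be given. No test between conditions was possible, and all intervals below are 95% Wilson intervals, which cover counting error only. Peaks are not replicates of a condition.

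MTA1 (metastasis-associated 1) is a subunit of the nucleosome remodelling and deacetylase complex NuRD, which joins a histone deacetylase to a chromatin remodelling ATPase and is found at promoters and enhancers. LncRNAs are transcribed mostly by RNA polymerase II, are often spliced and polyadenylated, and code for no known protein. Many are transcribed from the same promoter region as a protein-coding gene in the opposite direction, so a peak at such a start cannot be given to either gene, and the ends kept here are those without a protein-coding or miRNA end close by. RefSeq names lncRNAs by their place: AS for a gene antisense to another, DT for a divergent transcript, IT for one inside an intron, HG for the host of a small RNA, LINC for an intergenic gene and LOC for a gene with no other symbol.

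The lists had few positions in common. Over all peaks on chromosomes 1 to 22, 3.53% of list 1 and 3.64% of list 2 overlapped a peak of the other list by at least 1 bp. Every result is therefore given for each list. Of 10231 independent lncRNA promoters of 300 bases in the RefSeq promoter table (250 bases before the start to 50 after it, GRCh38.p14), 519 lay under a list 1 peak, 42 under a list 2 peak and 3 under both, with 1 base of overlap enough to count. Of 21155 protein-coding promoters, 16.9% lay under a list 1 peak, 2.91% under a list 2 peak and 282 under both.

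Those 3 promoters are printed because they are the only independent lncRNA promoters of the promoter table that lay under a peak of both lists. Another 3 sequences are added for contrast. The 3 shared promoters belong to LOC124904608 (chr19:488916-489215, plus strand), LOC105369594 (chr12:401361-401660, minus strand) and LOC124900480 (chr22:48576790-48577089, plus strand). They are independent of protein-coding gene ends, but 2 are close to a protein-coding start inside a gene. The start of LOC105369594 lay 234 bp from one, of CCDC77 on the opposite strand, whose own promoter window overlaps the one printed. That of LOC124900480 lay 700 bp from one. LOC124901494 (chr6:84773556-84773855, plus strand) and TSPOAP1-AS1 (chr17:58325200-58325499, plus strand) lay under high-scoring peaks of list 1 alone. The last sequence is an internal start of the protein-coding gene USP30 (chr12:109052326-109052625, plus strand), because the best-scoring list 1 peak of all 1230, at USP30-AS1, lay 7 bp from it. Sequences are from RefSeq, 5′ to 3′ on the gene's strand, and capitals mark each CG dinucleotide, the site of DNA methylation in vertebrates.
LOC124904608: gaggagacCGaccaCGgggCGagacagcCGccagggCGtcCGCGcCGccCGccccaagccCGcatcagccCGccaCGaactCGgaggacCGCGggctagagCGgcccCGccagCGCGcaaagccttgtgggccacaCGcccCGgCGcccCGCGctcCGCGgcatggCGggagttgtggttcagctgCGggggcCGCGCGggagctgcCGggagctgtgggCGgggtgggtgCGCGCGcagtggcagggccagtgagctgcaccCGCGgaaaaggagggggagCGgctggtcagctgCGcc
LOC105369594: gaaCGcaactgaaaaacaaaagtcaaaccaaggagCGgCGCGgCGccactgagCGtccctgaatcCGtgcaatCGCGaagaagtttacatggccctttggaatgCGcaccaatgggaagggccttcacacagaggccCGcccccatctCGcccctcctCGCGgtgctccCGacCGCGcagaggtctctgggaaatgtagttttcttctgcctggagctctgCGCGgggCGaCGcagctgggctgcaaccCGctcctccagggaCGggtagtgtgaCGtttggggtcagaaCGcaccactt
LOC124900480: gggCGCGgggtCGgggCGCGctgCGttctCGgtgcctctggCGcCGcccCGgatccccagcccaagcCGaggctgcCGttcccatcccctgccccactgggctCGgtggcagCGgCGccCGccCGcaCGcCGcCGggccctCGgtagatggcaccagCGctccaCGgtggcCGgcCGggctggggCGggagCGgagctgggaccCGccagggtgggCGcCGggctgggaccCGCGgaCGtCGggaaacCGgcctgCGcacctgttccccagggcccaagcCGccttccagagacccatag
LOC124901494: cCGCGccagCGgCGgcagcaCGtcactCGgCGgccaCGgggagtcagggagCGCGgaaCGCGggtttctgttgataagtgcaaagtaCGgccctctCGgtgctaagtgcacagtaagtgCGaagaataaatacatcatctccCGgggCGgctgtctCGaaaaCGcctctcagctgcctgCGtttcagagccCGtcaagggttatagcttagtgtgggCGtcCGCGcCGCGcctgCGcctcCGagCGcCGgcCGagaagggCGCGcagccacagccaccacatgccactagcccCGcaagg
TSPOAP1-AS1: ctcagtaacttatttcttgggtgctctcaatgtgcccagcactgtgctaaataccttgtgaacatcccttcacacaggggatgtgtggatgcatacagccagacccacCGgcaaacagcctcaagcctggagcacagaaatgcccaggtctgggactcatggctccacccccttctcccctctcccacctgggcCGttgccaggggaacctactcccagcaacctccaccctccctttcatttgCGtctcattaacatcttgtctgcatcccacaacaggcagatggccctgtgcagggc
USP30 internal start: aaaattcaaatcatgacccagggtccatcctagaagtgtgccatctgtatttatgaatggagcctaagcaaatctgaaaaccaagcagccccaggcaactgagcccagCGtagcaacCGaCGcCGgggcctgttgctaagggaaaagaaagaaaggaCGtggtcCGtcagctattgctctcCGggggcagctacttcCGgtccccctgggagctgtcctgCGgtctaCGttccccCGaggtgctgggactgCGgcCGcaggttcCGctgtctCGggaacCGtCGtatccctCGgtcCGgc
The promoters that both lists share were rich in G and C: 77% in LOC124904608, 61% in LOC105369594 and 78% in LOC124900480, with 40, 25 and 37 CG dinucleotides. The promoter of LOC124901494 had 34 CG dinucleotides and that of TSPOAP1-AS1 had 3. These counts are for the 300 bases alone, and the peaks extend beyond them. All independent lncRNA promoters had a median of 4.

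Peaks of list 1 lay at independent lncRNA ends more often than their surroundings would give, and peaks of list 2 less often. In list 1, 3.86% of peaks (3.66 to 4.08) met the rule, whereas 3.07% of the positions within 50 kb of the peaks did, a ratio of 1.26 (1.19 to 1.33). In list 2, 1.84% of peaks (1.70 to 2.00) met it and 2.18% of the positions did, a ratio of 0.844 (0.778 to 0.915). The share of positions was counted over every base within 50 kb of each midpoint and then averaged, which holds the gene density of the neighbourhood fixed. The ratio in list 1 was above 1 on 22 of 22 chromosomes, with a median of 1.29 and a range of 1.01 to 1.5. In list 2 it was above 1 on 5 of 22, with a median of 0.829 and a range of 0.469 to 1.12. When peaks and positions close to protein-coding or miRNA ends were left out of the base too, the ratios were 1.38 in list 1 and 0.850 in list 2.

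Among lncRNA genes of known strand, the excess of list 1 lay at 5′ ends. The nearest lncRNA gene had no strand for 378 of the list 1 peaks at independent ends (30.7%) and 271 of those in list 2 (47.9%). Whether those peaks lay at 5′ or 3′ ends of these genes could not be told. Strand was known for 11145 of 17795 lncRNA genes, and 584 list 1 peaks lay at an independent 5′ end against 311 at a 3′ end. The ratio to the positions within 50 kb was 1.91 (1.76 to 2.06) at 5′ ends and 0.861 (0.770 to 0.961) at 3′ ends. In list 2, 127 peaks lay at 5′ ends and 179 at 3′ ends, with ratios of 0.695 (0.585 to 0.827) and 0.787 (0.680 to 0.911). Of these peaks, 39 in list 1 and 6 in list 2 lay within 1000 bp of both kinds of end and counted under each. Over peaks and positions away from protein-coding and miRNA ends, the 5′ ratio was 2.06 in list 1 and 0.699 in list 2. On that base, without those within 1000 bp of an internal start of a protein-coding gene, it was 1.96 and 0.629.

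**Figure D1:**
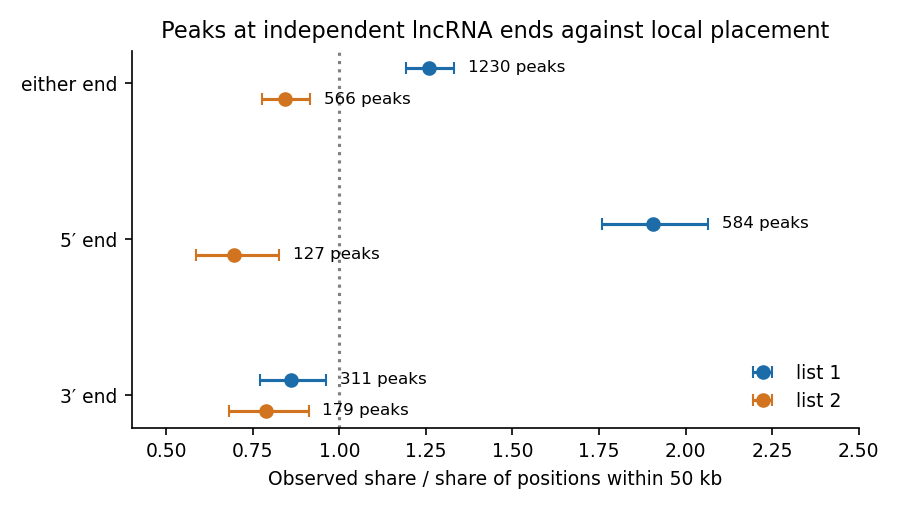
Ratio of the observed share of peaks to the share of positions within 50 kb (x axis, no unit), for either end, 5′ ends and 3′ ends (y axis). Points are the lists, bars 95% Wilson intervals of the observed share over the same placed share, and the dotted line marks 1; list 1 at 5′ ends stands at 1.91 and all 3 values of list 2 lie below 1.

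Distance from the end gave the same picture at finer scale. Within 500 bp of lncRNA 5′ ends, list 1 had 41.4 peak midpoints per Mb of sequence away from protein-coding and miRNA ends, against 16.5 at 2 to 5 kb, a ratio of 2.51. Its highest bin was the 500 bp just upstream of the start, with 198 peaks and 43.4 per Mb. List 2 had 5.62 per Mb within 500 bp of 5′ ends and 9.70 at 2 to 5 kb, a ratio of 0.579. At 3′ ends the values were 11.8 and 17.1 per Mb in list 1 (0.690) and 8.17 and 10.1 in list 2 (0.806). In list 1 both bins next to the 3′ end were below the level at 2 to 5 kb. In list 2 the sides differed, with 4.004 per Mb in the 500 bp upstream of the 3′ end (21 peaks) and 12.3 in the 500 bp downstream (65 peaks). A peak close to several ends was counted at each.

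**Figure D2:**
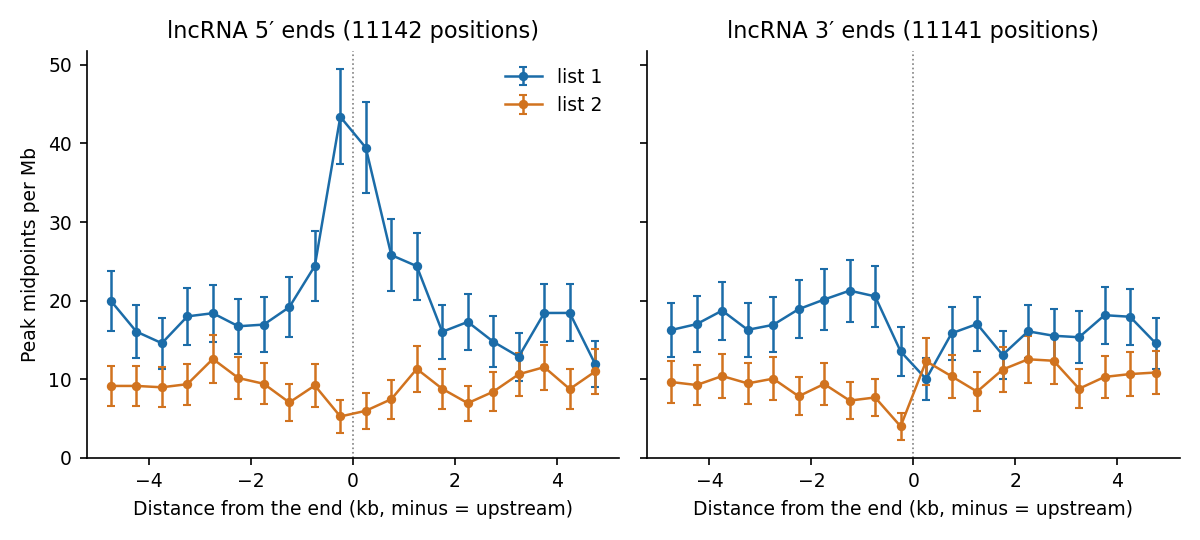
Peak midpoints per Mb (y axis) in bins of 500 bp by distance from lncRNA 5′ ends (left) and 3′ ends (right) in kb, minus meaning upstream, over sequence more than 1000 bp from protein-coding and miRNA ends. Points are the 2 lists and bars 1.96 times the square root of the count; list 1 reaches 43.4 per Mb next to 5′ ends and list 2 shows no rise there.

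Scores of these peaks were close to those of their whole list. The score is the value the authors' peak caller gave each peak, no source used here states its scale, and it ranks peaks within a list only. In the authors' deposited list 1, the median score was 66.1 (quartiles 56.4 and 83.3) at independent lncRNA ends and 64.1 over all peaks. Peaks at lncRNA ends that also lay near a protein-coding or miRNA end had a median of 75, those at protein-coding or miRNA ends without a lncRNA end 71.1, and those at none of these ends 62.9. The best 10% of list 1 by score held 11.9% (10.2 to 13.8) of the peaks at independent ends, 24.4% of those near a protein-coding or miRNA end and 20.1% of those at protein-coding or miRNA ends alone. In the authors' deposited list 2 the medians were 60.7 at independent ends and 60.6 over all peaks, and the best 10% held 11.1% (8.80 to 13.99). Within list 1, peaks at 5′ ends had a median of 68.2 with 15.4% in the best 10%, and those at 3′ ends 65.7 with 7.40%. In list 2 the medians were 58.2 and 59.7.

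The share at independent lncRNA ends was 4.59% in the best of 10 equal groups of list 1 by score and 3.64% in the last, with ratios to placement of 1.38 and 1.30. All 10 groups of list 1 had ratios above 1, the lowest being 1.10. In list 2 the share was 2.05% in the best group and 2.24% in the last, and only the best group had a ratio above 1, at 1.01. Of the 100 best peaks of list 1, 3 lay at an independent lncRNA end, and of the 100 best of list 2, 1 did, which is close to the 3.86% and 1.84% of the whole lists. Just inside the limit of 1000 bp, 99 list 1 peaks lay 901 to 1000 bp from an end with a median score of 67.6, and 102 lay 1001 to 1100 bp away with a median of 62.2. The same bands held 67 and 43 peaks in list 2, with medians of 64.2 and 58.0.

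**Figure D3:**
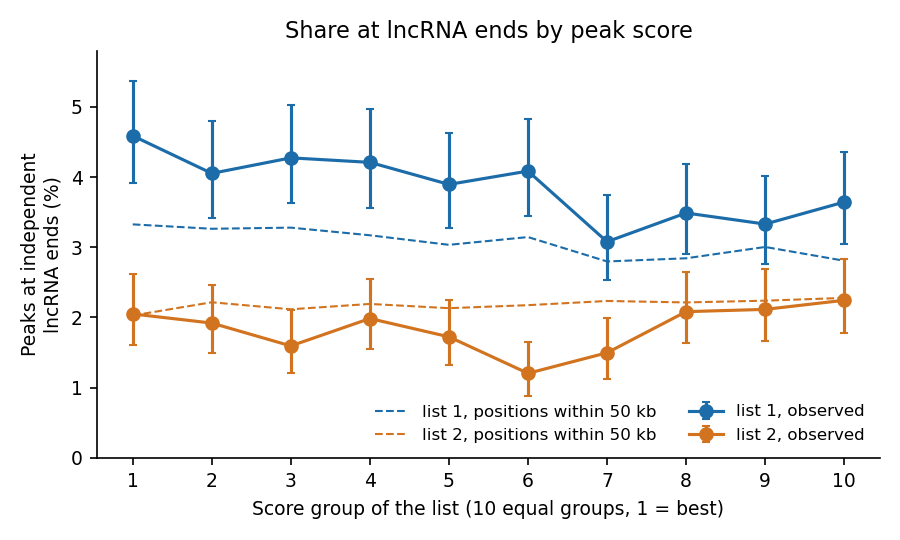
Share of peaks at independent lncRNA ends in percent (y axis) in 10 equal groups of the list by score (x axis, 1 is best). Points with 95% Wilson intervals are observed shares and dashed lines the share of positions within 50 kb; list 1 lies above its line in all 10 groups, while list 2 lies above its line in the best group alone.

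Overlap with the other list was no more frequent at these ends than elsewhere in list 1. Of 1230 list 1 peaks at independent lncRNA ends, 29 overlapped a list 2 peak, or 2.36% (1.65 to 3.37), against 3.53% of all its peaks. Of 566 list 2 peaks, 26 overlapped a list 1 peak, or 4.59% (3.15 to 6.65), an interval that holds the 3.64% of all its peaks. Peaks at lncRNA ends near a protein-coding or miRNA end overlapped in 8.66% of cases in list 1 and 40.1% in list 2. At protein-coding or miRNA ends without a lncRNA end the shares were 7.19% and 27.3%. The peaks of independent ends thus overlapped less often than either of those groups in both lists, with no test made. Peaks at none of these ends overlapped in 2.86% of cases in list 1, inside the interval at independent ends. In list 2 they did so in 2.56% (2.38 to 2.74), below the interval at independent ends.

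Overlaps were more frequent near internal starts of protein-coding genes. Of the list 1 peaks at independent lncRNA ends, 69 (5.61%) lay within 1000 bp of an internal start of a protein-coding gene, that is, a start in the promoter table other than the outer end used by the rule. Of those 69, 7 (10.1%) overlapped list 2, against 22 of the other 1161 (1.89%). In list 2 the counts were 7 of 23 (30.4%) and 19 of 543 (3.5%). The others include the 57 list 1 and 31 list 2 peaks on chromosome 8, where internal starts could not be looked for. The higher share near internal starts was not particular to lncRNA ends. Peaks at such internal starts but at no lncRNA, protein-coding or miRNA end overlapped in 47 of 545 cases in list 1 (8.62%). In list 2 they did so in 46 of 133 (34.6%). Peaks at 5′ ends overlapped in 12 of 584 cases in list 1 (2.05%) and those at 3′ ends in 2 of 311 (0.643%), and 61 of the 584 lay at an internal protein-coding start. Inside protein-coding genes lay 487 of the 1230 list 1 peaks (39.6%, with 39.0% of the eligible positions within 50 kb inside such genes) and 192 of the 566 in list 2 (33.9%, against 34.1%). Of those inside, 18 of 487 and 17 of 192 overlapped the other list, and of those outside, 11 of 743 and 9 of 374.

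In 26 pairs of overlapping peaks, both peaks met the rule. In 17 of the pairs the list 1 peak lay inside a protein-coding gene, in 7 it lay at an internal protein-coding start, and 18 pairs were at a LOC gene. In 14 pairs the overlap covered at least 50% of both peaks. In the authors' deposited lists the scores of these pairs ran from 54.45 to 450.54 in list 1 (median 82.0) and from 51.57 to 143.66 in list 2 (median 65.1). The order of the scores differed between the lists, with a Spearman rho of 0.13 over the 26 pairs, which is a description without a test. Another 3 list 1 peaks, at VSTM2B-DT, LOC105378724 and LOC124903037, overlapped a list 2 peak whose midpoint was outside the rule.

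The pair with the best sum of ranks was at the 5′ end of LOC124904608, whose promoter is printed above. The list 1 peak (chr19:488420-489438) had a score of 355.59, rank 52, in the authors' deposited list, with its midpoint 237 bp from the start. The list 2 peak scored 126.94, rank 376, and all 768 of its bases lay within the list 1 peak. The region is inside the gene CIMAP1D, 2695 bp from the nearest end or start of a protein-coding gene, so it was, by the sum of ranks, the strongest pair with no protein-coding start within 1000 bp.

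The next pairs stood at internal starts of protein-coding genes. At USP30-AS1 (chr12:109052232-109052935) the authors' deposited scores were 450.54, rank 23, in list 1 and 99.76, rank 1302, in list 2. USP30 encodes a deubiquitinase of the mitochondrial outer membrane that counters mitophagy, and its internal start lay 7 bp from the list 1 midpoint. At LOC105369594 (chr12:401188-401971) the scores were 131.28 and 111.12, and the midpoint lay 64 bp from a start of CCDC77, which runs in the opposite direction. At SLC39A13-AS1 the scores were 110.66 and 64.95, 121 bp from a start of SLC39A13, a zinc transporter of the secretory pathway. TENM3-AS1 (74.57 and 60.65) lay 290 bp from a start of TENM3, a teneurin that guides neuronal connections, and its 2 peaks overlapped by 10 bp. The other pairs of this kind were LOC124904696 at the zinc finger gene ZNF599 (60.15 and 63.05), LOC124900710 at GRSF1, an RNA-binding protein of mitochondria (75.45 and 51.57), and LOC124903380 at DEGS2, an enzyme of sphingolipid synthesis (68.23 and 52.57).

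Other pairs lay inside protein-coding genes with the list 1 midpoint more than 1000 bp from any known start. LOC124900480 in TAFA5 scored 92.62 in list 1 and 100.73 in list 2. Its list 2 midpoint did lie near a TAFA5 start, at 557 bp, which the list 1 midpoint missed at 1396 bp. LOC124900749 in GSTCD was the pair with the highest list 2 score, 143.66 at rank 215, and had 60.93 at rank 18259 in list 1. LOC124902038 in EXOSC4, a subunit of the RNA exosome, showed the reverse, with 374.43 at rank 45 in list 1 and 55.56 at rank 21966 in list 2. It lies on chromosome 8, for which the promoter table gives no starts, so an internal start there could not be looked for. IGF2-AS, antisense to the imprinted growth factor gene IGF2, had 80.98 and 53.31. The remaining pairs inside genes were LOC101927692 in ABLIM1 (82.98 and 58.65), LOC107984331 in OR9Q1 (55.18 and 75.76), LOC124903622 in CACNA1H (120.06 and 53.43), A2M-AS1 with LINC00612 in KLRG1 (58.53 and 65.22) and LOC105378728 in LRP8 (69.91 and 51.80).

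Outside protein-coding genes there were 9 pairs. LOC124904905 on chromosome 20 had the highest list 1 score of these, 191.67 at rank 343, and 69.49 in list 2, and its peaks lay 75136 bp from the nearest protein-coding or miRNA end. LOC124904288 on chromosome 18 had 153.16 and 65.48, 1435 bp from such an end. LOC107985576 had 152.65 and 53.09, LOC101927418 99.98 and 66.58, and LINC02891 with LOC105372862 89.51 and 57.43. At LOC105370088 the list 2 score was the higher-ranked, 87.71 at rank 2686 against 57 at rank 22465. LINC02837 (57.03 and 71.52), LOC105373570 (54.45 and 65.26) and LINC01702 (55.16 and 52.23) had list 1 scores close to the lowest of that list, which was 50.

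**Figure D4:**
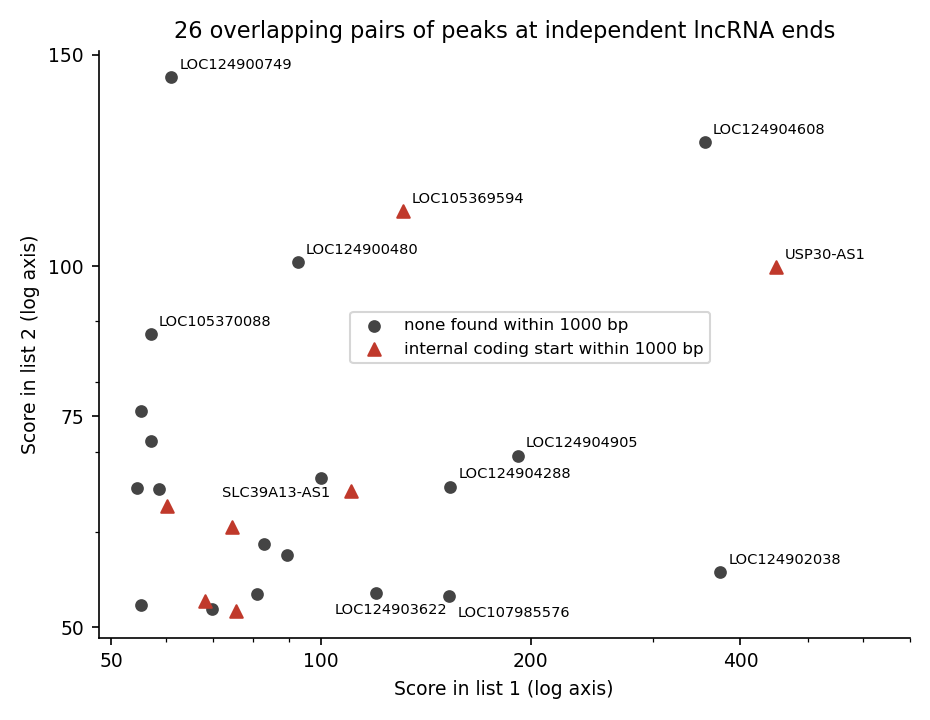
Scores of the 26 pairs of overlapping peaks at independent lncRNA ends in list 1 (x axis, log scale) and list 2 (y axis, log scale), no unit. Triangles are the 7 pairs whose list 1 midpoint lies within 1000 bp of an internal protein-coding start, circles the other pairs (starts at LOC124902038 could not be searched); LOC124904608 (355.59 and 126.94) and LOC105369594 (131.28 and 111.12) are the only 2 above 100 in both lists.

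Of the 15 best list 1 peaks at independent ends, 4 overlapped list 2 (26.7%, against 2.36% of all list 1 peaks at such ends): USP30-AS1, LOC124902038, LOC124904608 and LOC124904905. Of the 15 best peaks of the whole of list 1, 11 overlapped list 2. In the authors' deposited list 1 the others were LOC124901494 (246.84), LOC124901955 (244.31), TSPOAP1-AS1 (235.54), LOC101927793 (233.56), LOC124903755 (229.55), LOC124904081 (221.52), TDH-AS1 (208.61), LOC124909489 (203.0), LOC124905042 (199.6), LOC105375751 (191.67) and HDHD5-AS1 (188.51). Of these 15, 9 lay inside protein-coding genes, 4 lay on chromosome 8, and HDHD5-AS1, like USP30-AS1, stood at an internal protein-coding start, 82 bp from one of HDHD5. The midpoints at LOC124903755, LOC124909489 and LOC124901494 were 12, 29 and 30 bp from the lncRNA end. Widths of 4003 bp at LOC124904081 and 4723 bp at LOC101927793 were far above the median of 767 bp for list 1 peaks at independent ends.

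In the authors' deposited list 2 the best was LOC105370680 (209.99, rank 113), 544 bp from its 5′ end and 7147 bp from the nearest protein-coding end. It was followed by LOC124900806 (152.81), LOC124900749 (143.66), LOC401312 (134.0), LOC124907879 (132.05), LOC124905005 (130.53), LOC105372436 (129.91), LOC124902501 (128.85), LOC105376253 (127.76), with GPR84-AS1 and LOC124904608 tied at 126.94. All but LOC124900749 and LOC124904608 were without overlap in list 1. Their widths ran from 229 bp at LOC124902501 to 1695 bp at LOC105370680. Over all list 2 peaks at independent ends the median width was 455 bp, with an upper quartile of 527 bp.

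Counted by gene, 1191 of 17767 lncRNA genes with any independent position at an end had a list 1 peak there (6.70%), 579 had a list 2 peak (3.26%) and 56 had both (0.315%). Among protein-coding genes, 25.3% had a list 1 peak within 1000 bp of an end, 6.53% a list 2 peak and 2.72% both. The product of the shares would give 38.8 lncRNA genes with both, a ratio of 1.44, and for protein-coding genes 316.1 against the 521 seen, a ratio of 1.65. The 56 genes were 4.70% of the lncRNA genes in list 1 and 9.67% of those in list 2, while the shared protein-coding genes were 10.8% and 41.7%. Some members lay near several lncRNA genes, 70 of the 1796. Genes with a list 1 peak had a median length of 6684 bp, those with a list 2 peak 9751 bp and those without a peak 9320 bp.

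In 28 of the 56 genes the peaks of the lists overlapped, and in the other 28 they lay apart, in some at opposite ends. LOC124904610, with 160.48 in list 1 and 62.58 in list 2 in the authors' deposited lists, had its list 1 peak at the 3′ end and its list 2 peak 68 bp from the 5′ end. LOC105376270 (144.56 and 53.67) had them the other way round. LOC107984628 (60.74 and 119.26), LOC107987182 (50.80 and 93.55) and LOC105369631 (62.64 and 88.69) had the highest list 2 scores of these 28. Genes with a symbol of their own were TRERNA1 (70.71 and 63.43), a lncRNA named for a role in translation, MIR130AHG (83.56 and 52.23), the host of a miRNA, ST20-AS1 (83.51 and 57.29), FOXN3-AS1 (53.94 and 52.23), NEMP2-DT (50.16 and 57.57), LINC02361 (79.38 and 69.40), LINC02609 (75.45 and 50.75) and LINC01341 (58.68 and 50.64). The rest were LOC124903826, LOC105378895, LOC107986669, LOC124901774, LOC107987138, LOC105378436, LOC105369329, LOC107984358, LOC105370113, LOC124903679, LOC101927511, LOC105372309, LOC105372776 and the adjoining pair LOC105372394 and LOC644554, with list 1 scores up to 135.15 at LOC124903679.

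By symbol, list 1 peaks were less frequent at LOC genes than at LINC or antisense genes, and list 2 peaks were not. In list 1, 5.94% of 12063 LOC genes had a peak, against 8.13% of 2263 LINC genes and 9.24% of 1991 antisense genes. In list 2 the shares were 3.48%, 2.87% and 3.11%. Divergent transcripts had 6.03% and 2.59% of 580 genes, but a divergent transcript starts near another gene, so many of these starts were outside the rule. Against the positions within 50 kb, list 1 ratios were 1.57 (1.36 to 1.81) for LINC, 1.43 (1.25 to 1.64) for antisense, 1.42 (1.03 to 1.95) for divergent and 1.17 (1.10 to 1.26) for LOC genes. List 2 ratios were 0.761, 0.750, 0.676 and 0.893, below 1 in each of these classes.

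In 9 genes there were 3 or more peaks at the ends. LOC107987039 had 4, all in list 1. LINC00322, LOC101928796, LOC124904073 and LOC124904074 had 3, also in list 1 alone. LINC01702, LOC124900480 and LOC124903679 had 2 in list 1 and 1 in list 2, and LOC105378436 had 1 and 2. At LOC101928796, a gene of 1984 bp, the authors' deposited scores were 96.4, 69.98 and 50.64, with the best peak 17 bp from an end.

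Lists of well-studied lncRNAs held small numbers of genes with an independent peak, to be read against 6.70% of all lncRNA genes in list 1, 3.26% in list 2 and 0.315% in both. Of 32 snoRNA host genes, whose introns hold small nucleolar RNAs, 3 had a list 1 peak and 1 a list 2 peak, which are shares of 9.38% and 3.13%. SNHG16 had a score of 90.40 in the authors' deposited list 1 with the midpoint 100 bp from its 5′ end, SNHG11 had 68.52 at 367 bp and SNHG33 had 54.35 at 80 bp. SNHG30 had 57.24 in list 2. Of 25 lncRNAs from the colorectal cancer literature, 3 (12%) had a list 1 peak, FEZF1-AS1 (72.53), LINC00659 (68.96) and ZEB1-AS1 (54.34), and 1 (4%) a list 2 peak, PANDAR (64.74). A list of 5 lncRNAs for nuclear architecture had the highest list 1 share, with 2 genes (40%), and 0 with a list 2 peak. Both genes are named below. Each list holds few genes, and no share was tested against that of all lncRNA genes. ZEB1-AS1 and FEZF1-AS1 stood 303 and 406 bp from internal starts of ZEB1, a repressor of epithelial genes, and FEZF1.

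The neighbourhood of CDKN1A, the p53 target that encodes the cell cycle inhibitor p21, had 1 lncRNA in each list. DINOL, a damage-induced lncRNA from its promoter region, had a list 1 peak with a score of 56.77 in the authors' deposited list, 514 bp from an internal CDKN1A start, and PANDAR had the list 2 peak with 64.74, 5216 bp from such a start. The list of 6 lncRNAs linked to p53 held PANDAR and not DINOL, which stood in a list with lncRNAs of nuclear organisation although it is known for its part in the p53 response. In that list CDKN2B-AS1, which is antisense in the INK4 locus, also had a list 1 peak (66.41). The same peak was closer to LOC124902130, at 217 bp from its 5′ end. It lay inside CDKN2A, 1079 bp from the nearest protein-coding end and start, so it was only just outside the limit of 1000 bp. Of 14 lncRNAs typical of other tissues, LINC00261 (71.88), a neighbour of the endoderm factor FOXA2, and FENDRR (50.78), a mesoderm lncRNA next to FOXF1, had list 1 peaks.

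The lists of HOX cluster and imprinted lncRNAs did not cover those loci in full. Of the 12 HOX lncRNAs listed, HOXB-AS1 had a list 1 peak (69.00) in the authors' deposited list. Among HOX lncRNAs that were not listed, chosen after their values were seen, HOXC13-AS and HOXB-AS4 had 2 list 1 peaks each, and HOXC-AS3 and HAGLROS had 1 each. The 8 imprinted lncRNAs listed had no peak in either list. Of lncRNAs at imprinted loci that were not listed, also chosen after their values were seen, IGF2-AS had 1 peak in each list, and PEG13, MESTIT1 and DIO3OS had 1 each in list 1. For both kinds of locus only unlisted lncRNAs with a peak are named here, so no share can be read from them. No listed gene had an independent peak in both lists.

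Promoters of lncRNA genes under a list 1 peak were richer in G and C than the others. Median GC content was 62.0% in 519 independent promoters under a list 1 peak, 67.2% in 42 under a list 2 peak and 46.7% in 9673 under none, against 62.7% in all protein-coding promoters of the table. The medians of CG dinucleotides were 16, 24.5 and 3, against 21 in protein-coding promoters. The GC box GGGCGG, searched on both strands as were all motifs, stood in 45.5% of promoters under list 1 peaks, 69.0% under list 2 peaks, 14.8% under none and 16.5% of all independent lncRNA promoters. It stood in 56.6% of protein-coding promoters. All 3 promoters shared by both lists held it, as did that of LOC124901494, and that of TSPOAP1-AS1 did not.

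The A/T-rich motif TATAAA showed the opposite order, with 4.62% under list 1 peaks, 0 of 42 under list 2 peaks (which allows up to 7.14%) and 18.2% under none. The E-box CACGTG stood in 8.48% of promoters under list 1 peaks and 4.56% under none, and the ETS core CCGGAAG in 10.4% and 3.41%. TGANTCA, the AP-1 site, stood in 5.39% and 12.2%, the GATA factor site, AGATAA, in 6.94% and 17.2%, and the box CCAAT in 25.4% and 36.1%. Motifs rich in G and C were thus more frequent and those rich in A and T less frequent under list 1 peaks. Base composition was not matched between these groups, and a match is a string of letters, not a bound site.

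Independent lncRNA promoters were split into 5 equal groups by GC content. The share under a list 1 peak was 0.293% in the lowest group, then 0.587%, 1.22%, 6.70% and 16.6% (15.02 to 18.24) in the highest. Protein-coding promoters of the same GC ranges had 0.431%, 1.21%, 5.52%, 13.1% and 22.7% (21.99 to 23.43). In the middle group the intervals were 0.829 to 1.80% for lncRNA and 4.55 to 6.67% for protein-coding promoters. Without lncRNA promoters within 1000 bp of an internal protein-coding start, the share in the highest group was 16.2%. List 2 had 0.342% in the lowest group, 0.0489%, 0.147% and 0.147% in the next, and 1.37% (0.949 to 1.97) in the highest, where protein-coding promoters had 4.38% (4.04 to 4.75). Protein-coding promoters of the lower GC ranges had 0 of 1161 (which allows up to 0.258%), 0.284%, 0.167% and 1.00% in list 2, so in the lowest group the share was higher at lncRNA promoters, with overlapping intervals. In both lists the share was thus lower at lncRNA than at protein-coding promoters of the highest GC range, with intervals that did not overlap. GC content within that range was not matched further. The 10231 lncRNA promoters came from 9121 genes and the 21155 protein-coding promoters from 15100 genes. Promoters of 1 gene can lie under the same peak, so the intervals, which count each promoter as independent, can be too narrow.

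**Figure D5:**
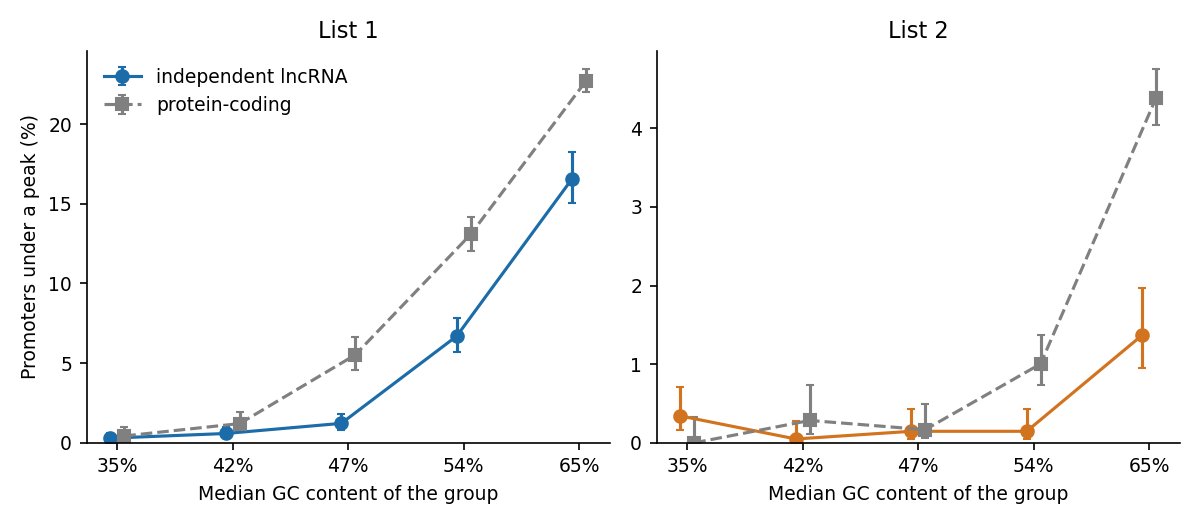
Share of promoters under a peak in percent (y axis, separate scales) in 5 groups by GC content of independent lncRNA promoters, labelled by the median GC of the group (x axis), for list 1 (left) and list 2 (right). Circles are independent lncRNA promoters, squares protein-coding promoters of the same GC ranges and bars 95% Wilson intervals; list 1 goes from 0.293% to 16.6% at lncRNA promoters and from 0.431% to 22.7% at protein-coding ones.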

How the data were processed

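MTA1 and input libraries of HCT116 were compared in 2 peak lists, 1 for each replicate number; the input of a list was taken from the number in its names. Per the submitters' processing notes, cutadapt and Bowtie2 were used with GRCh38, with no version named. Peak names are of the MACS form, per the file headers and names; the caller's version and settings were not given in the sources used here. The authors deposited a position and a score for each peak. The score has no stated scale, no value is below 50 in either list, and it was used to rank and describe peaks within a list. BED starts were taken as 0-based and are printed 1-based.

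Genes came from a RefSeq table with 1 row per gene (17795 lncRNA, 19122 protein-coding and 1793 miRNA genes on chromosomes 1 to 22). The RefSeq promoter table (GRCh38.p14) gave strand for 11145 lncRNA genes and internal starts of protein-coding genes, and has no entry used here for chromosome 8. The share of positions meeting the rule within 50 kb was counted exactly, without random draws. No statistical test was used, since values per library were not analysed here; the overlap and distance code was tested on simulated data. The alternatives changed windows, distances, overlap, score filter, gene set, placement range and base.

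The members and lists were chosen with earlier results of these data known. Genes are named when both lists had a peak at them, when among the 15 best peaks of list 1 or 10 best of list 2 at such ends, when they had 3 or more peaks, or when in a lncRNA list with a peak. Tools were Python 3.11.15, numpy 2.4.6, pandas 2.3.3, scipy 1.17.1 and matplotlib 3.10.9.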

Additional observations from a re-analysis of the deposited data

Results flagged for a closer look

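The comparisons used chromosomes 1 to 22. On the sex chromosomes, outside those comparisons, 4 of 207 list 2 peaks met the same rule, or 1.93% (0.754 to 4.86), against 0.924% of the positions within 50 kb, or 1.91 peaks. The value is listed because it lies outside the comparisons and is more than the 3 that a count of 0 allows, which is no comparison with placement, and its interval holds the placed share. List 1 had 2 of 177 there, or 1.13%, against 1.60% of the positions.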

How the results depend on the processing

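Of 62 values under alternatives, 30 stayed close to the reported value, 32 moved and 0 changed direction. The cause was not tested. Shares and ratios called close lay inside the interval of the reported value. Gene counts had a wider limit, a factor of 1.5, so a fall from 1714 to 1191 genes in either list was still called close. With a window of 500 bp, the share at independent ends was 2.14% in list 1 and 0.901% in list 2, the list 1 ratio 1.36, and 13 genes had peaks in both lists and 950 in either. With 3000 bp these were 8.96%, 5.60%, 1.06, 274 and 3886. At 5000 bp from protein-coding and miRNA ends the shares were 2.91% and 1.46%, with 37 genes in both. Any overlap in place of the midpoint gave 5.14% and 2.25%. The better-scoring 50% of each list gave 4.20% in list 1, 1.49% of its members overlapping list 2, 13 genes in both and 950 in either. Without LOC genes the shares were 1.53% and 0.508%, the ratios 1.46 and 0.728, with 17 genes in both and 616 in either. Requiring overlap of at least 50% of both peaks gave 1.14% overlapping. The list 1 ratio was 1.17 with placement within 10 kb and 1.35 within 1 Mb. At 5′ ends alone the shares were 1.83% and 0.413%. Leaving out a replicate left 579 to 1191 genes. In alternatives chosen after the data were seen, a base away from protein-coding and miRNA ends gave a list 1 ratio of 1.38. The ratio under any overlap was not run, since placement is defined for midpoints only. No paired analysis was possible because the lists hold no values per library and the results come from no test. Depth is unknown for both lists, so no interval covers it, and genes without strand are missing from the 5′ and 3′ counts.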

Other observations

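Distance to the lncRNA end within the window differed little in score. In list 1, 152 peaks within 100 bp of an end had a median score of 69.8 in the authors' deposited list, and 243 peaks at 751 to 1000 bp had 67.5. In list 2, 41 peaks within 100 bp had a median of 56.7, and 150 peaks at 751 to 1000 bp had 61.8.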
